A study of Mus musculus with 12 samples.

Results

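Hepatokines are proteins that the liver secretes and that act on metabolism elsewhere, and the angiopoietin-like (ANGPTL) proteins include secreted inhibitors of the lipases that clear triglyceride from blood. The 9 genes described here, Fgf21, Gdf15, Inhbe, Angptl4, Angptl8, Angptl6, Ahsg, Fetub and Rbp4, were taken by name from a table of 41708 genes. All 9 were found in the table and all 9 passed the filter on low counts, which kept 12615 genes. They were measured by RNA sequencing in the livers of 12 mice on a C57BL6/J background, all fasted for 16 h. Of these, 5 were Ube4a flox/flox (flox 1 to 5) and 7 were Ube4a LKO (LKO 1 to 7), which carry the same flox/flox alleles and Albumin-Cre. Ube4a encodes a ubiquitin chain elongation factor, and the Albumin promoter drives Cre in hepatocytes, so other liver cells keep the gene. The labels give no Cre to the flox mice and give neither age nor sex for either group.

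The comparison asks whether loss of Ube4a in hepatocytes moves the transcripts of secreted liver factors in the fasted state. No member differed between the groups past the threshold, an adjusted p under 0.05 in edgeR's quasi-likelihood test. What varied was the individual liver: Fgf21, Inhbe and Gdf15 each ranged over more than 5-fold among the 12 mice, while Rbp4 and Fetub ranged over 1.38-fold and 1.45-fold.

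As background, fasting raises hepatic Fgf21 and Angptl4 through the fatty acid receptor PPARA, and cellular stress raises Fgf21 and Gdf15 through the transcription factors ATF4 and CHOP. Angptl8 is an insulin-responsive gene of the fed liver, and ANGPTL4 inhibits lipoprotein lipase in the fasted state. Fetuins and retinol-binding protein are made by hepatocytes in bulk and circulate as carriers or inhibitors.

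Promoter sequences are shown for the 3 genes whose 250 bases before the start hold TGATGCAA, the core of the composite element that C/EBP and ATF4 proteins recognise. They come from RefSeq on GRCm38.p6, which held an entry for 8 of the 9 genes (all except Angptl4), and read 5′ to 3′ along the gene. Capitals mark the element, which stands on the plus strand of the gene in Angptl8 and on the minus strand, as TTGCATCA, in Fgf21 and Inhbe. The windows are chr7:45615491-45615740 (minus strand) for Fgf21, chr10:127351849-127352098 (minus strand) for Inhbe and chr9:21835260-21835509 (plus strand) for Angptl8.
Fgf21: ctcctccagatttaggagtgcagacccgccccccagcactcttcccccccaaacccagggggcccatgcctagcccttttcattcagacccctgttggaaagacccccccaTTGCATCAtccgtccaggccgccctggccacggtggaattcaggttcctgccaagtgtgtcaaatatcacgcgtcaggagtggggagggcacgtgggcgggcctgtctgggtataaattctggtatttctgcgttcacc
Inhbe: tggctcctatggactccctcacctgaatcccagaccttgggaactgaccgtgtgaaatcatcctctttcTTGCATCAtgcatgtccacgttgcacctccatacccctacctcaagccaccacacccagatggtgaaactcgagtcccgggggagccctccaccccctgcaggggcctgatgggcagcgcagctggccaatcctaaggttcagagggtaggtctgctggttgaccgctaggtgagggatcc
Angptl8: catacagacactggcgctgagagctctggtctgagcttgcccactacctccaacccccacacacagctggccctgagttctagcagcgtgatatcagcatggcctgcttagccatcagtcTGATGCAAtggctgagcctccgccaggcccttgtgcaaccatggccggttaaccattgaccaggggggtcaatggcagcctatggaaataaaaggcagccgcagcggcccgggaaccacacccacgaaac

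The element lies at -139 to -132 from the annotated start in Fgf21, at -181 to -174 in Inhbe and at -130 to -123 in Angptl8. It occurs in 260 of 32851 promoters of the same length (0.791%, both strands searched). The looser motif TGATGNAA, which includes every TGATGCAA match, is also in Rbp4 and in 3.45% of promoters. The E-box CACGTG is in Fgf21 and Gdf15 (6.02% of promoters), and the TATA box TATAAA in Fgf21, Fetub and Rbp4 (12.4%). The exact direct repeat spaced by 1 base that PPARA recognises with RXR is in none of the 8 member promoters and in 0.0335% of all, and the CRE TGACGTCA is in none of them and in 1.55% of all. The motif letters were chosen with the sequences in view, and a match describes letters in this window only.

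Libraries held 13399874 to 16525053 counts. Ube4a was lower in every LKO liver (134 ± 11.6 CPM, counts scaled to library size, SD, n = 5, against 26.6 ± 3.45, SD, n = 7), so each library carried the Ube4a level its label gives. Flox 4 and flox 5 stood apart from the other 10 livers. The summed level of 8 neutrophil markers was 265 and 421 CPM in them and at most 1.496 CPM in every other liver, that of 7 Kupffer cell or macrophage markers 379.6 and 554 CPM against 22.2 to 189, and that of 6 stellate cell markers 232 and 339 CPM against 83.1 to 208. The 6 hepatocyte markers summed to 95764 and 90162 CPM in that pair and to 94081 to 125296 CPM in the others. Of 7 adipocyte markers, Lep and Retn were at 0 in every library, and Adipoq, Plin1 and Cfd reached at most 5 counts. The list also holds Cidec and Adrb3, and all 7 summed to 96.0 to 294 CPM in flox and 46.0 to 187 CPM in LKO livers. Results are therefore given with all livers and, where they change, without this pair, and the pair's part in each result was otherwise not tested. In RNA from whole liver, fewer cells of a type and less RNA per cell cannot be told apart.

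Levels of the 9 transcripts spanned 3 orders of magnitude. On the FPKM scale, fragments scaled by gene length and library size, Ahsg led with a mean of 5561 ± 790.1 (SD, n = 12), followed by Rbp4 at 4022 ± 367, Fetub at 499.7 ± 52.9 and Angptl4 at 102 ± 15.1. Inhbe had 56.1 ± 23.4, Fgf21 29.4 ± 9.77, Angptl8 16.6 ± 6.95, Gdf15 5.54 ± 2.95 and Angptl6 3.75 ± 1.23 FPKM. The plasma carriers and fetuins thus took the first 3 places and the endocrine factors the lower ranks. Between neighbours in this order, the ranges over livers were separate for Rbp4 and Fetub and for Fetub and Angptl4, and overlapped for the other 6 pairs. Within single livers, Fgf21 was above Angptl8 in 9 of 12 and Gdf15 above Angptl6 in 8 of 12, while the other neighbours kept their order in all 12.

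**Figure D1:**
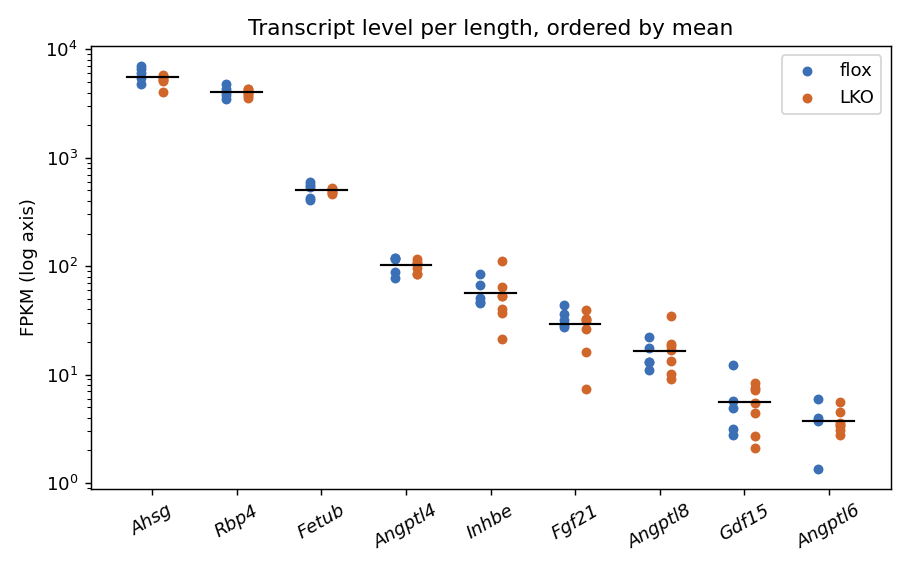
Level of each gene in FPKM on a log axis, genes ordered by their mean over 12 livers; points are livers (blue flox, orange LKO) and the bar is the mean. Ahsg and Rbp4 lie near 5561 and 4022 FPKM and Angptl6 near 3.75, with the ranges of the 2 groups overlapping for every gene.

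Coordinates from here on are those of the authors' table, which uses the C57BL/6NJ strain annotation. The 3 endocrine stress and fasting factors come first. Fgf21 (MGP_C57BL6NJ_G0032715, chromosome 7, 48168081 to 48169664, minus strand) encodes a hormone that signals through FGF receptors with beta-Klotho. It measured 34.0, 40.9, 29.6, 25.6 and 26.3 CPM in flox 1 to 5 and 36.7, 29.4, 30.5, 6.93, 30.1, 15.1 and 24.5 CPM in LKO 1 to 7. LKO 4 and LKO 6 were the lowest of all 12, on 94 counts in LKO 4, and the other LKO livers lay among or close to the flox livers. The means were 31.3 ± 6.30 (SD, n = 5) and 24.8 ± 10.3 CPM (SD, n = 7), and the log2 fold change, LKO over flox, was -0.34 (standard error 0.31, 95% confidence interval -1.02 to 0.35, edgeR adjusted p = 0.821). The coefficient of variation was 20.1% in flox and 41.7% in LKO livers, where reads alone would give 4.91%. The difference in spread was not tested.

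Inhbe (MGP_C57BL6NJ_G0018214, chromosome 10, 135380705 to 135383075, minus strand) encodes the beta E subunit of activin, a hepatocyte product of the TGF-beta family. It measured 142, 181, 98.4, 98.8 and 108 CPM in flox livers and 137, 87.5, 114, 46.0, 113, 79.2 and 238 CPM in LKO livers. The lowest and the highest of the 12 livers, LKO 4 and LKO 7, were both knockouts, and they lay 5.18-fold apart. Between groups the log2 fold change was -0.11 (standard error 0.33, interval -0.83 to 0.61, adjusted p = 0.956), and it was above 0 without flox 2 (0.047) or without LKO 4 (0.018).

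Gdf15 (MGP_C57BL6NJ_G0034212, chromosome 8, 73587830 to 73590893, minus strand) encodes a stress hormone that lowers appetite through the hindbrain receptor GFRAL. It measured 22.9, 9.20, 10.5, 5.78 and 5.06 CPM in flox livers and 14.1, 8.33, 13.4, 5.01, 15.4, 3.88 and 10.1 CPM in LKO livers. Flox 1 was the highest of all, and the rest of the flox livers fell within the LKO range. The log2 fold change was -0.09 (standard error 0.42, interval -1.01 to 0.83, adjusted p = 0.973). Its direction rested on single livers: it was 0.40 without flox 1, 0.013 without LKO 4, 0.041 without LKO 6 and -0.51 without flox 4 and flox 5.

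**Figure D2:**
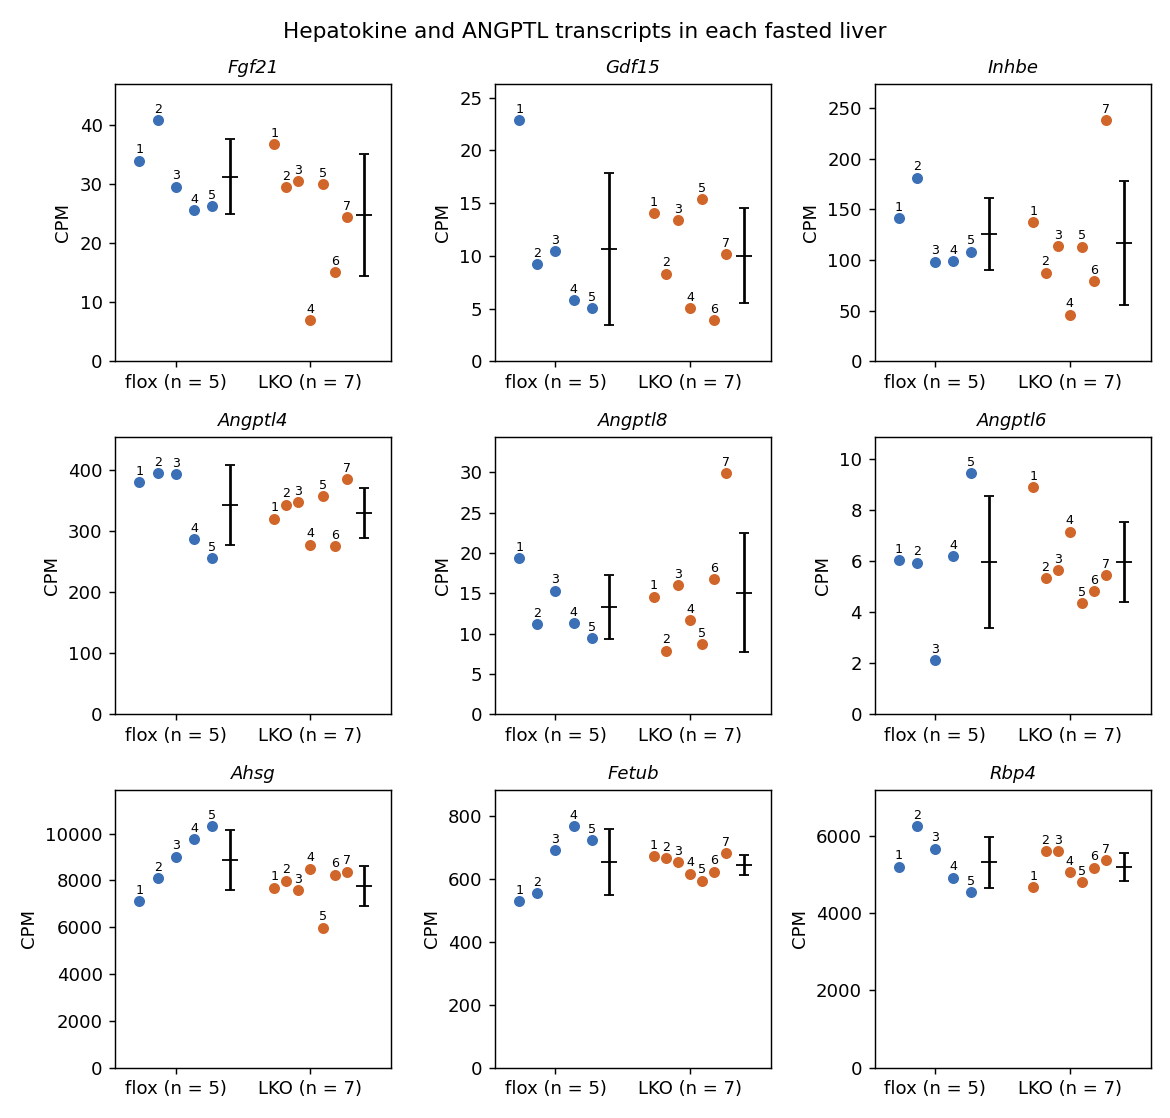
CPM of each gene in each liver, numbered by replicate (blue flox, orange LKO), with the mean and SD of each group as the bar beside it and each vertical axis starting at 0. The groups overlap for all 9 genes, with single livers set off, such as LKO 4 for Fgf21 (6.93 CPM), LKO 7 for Angptl8 (29.9 CPM) and flox 3 for Angptl6 (2.14 CPM).

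Among the ANGPTL genes, Angptl4 (MGP_C57BL6NJ_G0023943, chromosome 17, 34953075 to 34960900, minus strand) measured 380.3, 395, 393, 288 and 256 CPM in flox livers and 321, 344, 348, 278, 358, 276 and 385 CPM in LKO livers. Flox 1 to 3 lay above every LKO liver except LKO 7, which lay among them, while flox 5 was the lowest of the 12. The log2 fold change was -0.05 (standard error 0.12, interval -0.32 to 0.21, adjusted p = 0.941) with all livers. Without flox 4 and flox 5 it was -0.24 (standard error 0.11, unadjusted p = 0.0432, adjusted p = 0.903 in edgeR), and without flox 3 it was 0.0012.

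Angptl8 (MGP_C57BL6NJ_G0034954, chromosome 9, 19851910 to 19853746, plus strand) measured 19.4, 11.2, 15.4, 11.3 and 9.51 CPM in flox livers and 14.6, 7.92, 16.0, 11.7, 8.72, 16.7 and 29.9 CPM in LKO livers. LKO 7 was set off above all others, as it was for Inhbe. Its log2 fold change was 0.18 (standard error 0.31, interval -0.49 to 0.84, adjusted p = 0.908), -0.087 without LKO 7 and -0.026 without flox 4 and flox 5. The gene lies wholly inside Dock6, which is on the opposite strand and averaged 8.89 CPM. How the counting treated strand is not stated in the labels, and the overlap is of whole gene spans, as exons were not compared. Whether reads of Dock6 entered the count of Angptl8 is therefore not known. It lies on the chromosome of Ube4a, 24883253 bases away.

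Angptl6 (MGP_C57BL6NJ_G0034919, chromosome 9, 18759399 to 18765269, minus strand) was the least abundant, on 28 to 155 counts. It measured 6.05, 5.94, 2.14, 6.21 and 9.45 CPM in flox livers and 8.91, 5.35, 5.65, 7.15, 4.36, 4.84 and 5.44 CPM in LKO livers. The flox group held both the lowest liver, flox 3, and the highest, flox 5. The group means were both 5.96 CPM (SD 2.59, n = 5, and SD 1.56, n = 7). The log2 fold change was -0.01 (standard error 0.28, interval -0.60 to 0.59, adjusted p = 0.997), and 0.33 without flox 4 and flox 5 (adjusted p = 0.949). It overlaps A230050P20Rik (16.4 CPM) on the opposite strand by 475 bases, with the same limits on strand and exons.

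The fetuins and the retinol carrier were the most abundant members. Ahsg (MGP_C57BL6NJ_G0023090, chromosome 16, 20859340 to 20868716, plus strand) encodes fetuin-A, a plasma protein that binds calcium phosphate and inhibits the insulin receptor. It measured 7109, 8092, 9021, 9781 and 10318 CPM in flox livers and 7693, 7990, 7584, 8507, 5986, 8247 and 8376 CPM in LKO livers. The 3 highest livers were flox and the lowest was LKO 5. The log2 fold change was -0.19 (standard error 0.12, interval -0.44 to 0.06, adjusted p = 0.708), the smallest adjusted p among the 9 genes. Without flox 4 and flox 5, its 2 highest livers, it was -0.06.

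Fetub (MGP_C57BL6NJ_G0023091, chromosome 16, 20900549 to 20910976, plus strand) encodes fetuin-B, a protease inhibitor of the same family, and starts 31832 bases beyond Ahsg with no gene between them. It measured 529.7, 556, 691, 767 and 723 CPM in flox livers and 673, 665, 654, 617, 595, 623 and 681 CPM in LKO livers. All 7 LKO livers lay inside the flox range. Its log2 fold change was -0.02 (standard error 0.10, interval -0.23 to 0.18, adjusted p = 0.973) and 0.12 without flox 4 and flox 5. It was also above 0 without flox 3, flox 4 or flox 5 alone, at 0.039 or less.

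Rbp4 (MGP_C57BL6NJ_G0025503, chromosome 19, 38201352 to 38210041, minus strand) encodes the plasma carrier of retinol. It measured 5200, 6246, 5664, 4914 and 4541 CPM in flox livers and 4680, 5593, 5599, 5060, 4797, 5172 and 5373 CPM in LKO livers. Here too the flox range held all LKO livers. LKO over flox, the log2 fold change was -0.04 (standard error 0.10, interval -0.24 to 0.17, adjusted p = 0.949), and 0.018 without flox 2.

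Counted together, 0 of the 9 members passed the edgeR threshold, where 0.00793% of all 12615 genes did, a single gene that was Ube4a (log2 fold change -2.33, standard error 0.09, adjusted p = 3.44e-09). At an unadjusted p under 0.05 there were 0 members, against 7.64% of all genes, and 0 members had groups that did not overlap, against 0.484%. DESeq2 called 0 members, and 0.189% of all genes. One member was higher and 8 were lower in LKO livers, with a median log2 fold change of -0.05, against -0.01 over all genes. The half-width of the 95% interval had a median of 0.59 log2 units over members and 0.29 over all genes, so the members' intervals were typically wider. For Gdf15 the interval covered 0.497-fold to 1.77-fold of the flox level, and for Fgf21 0.493-fold to 1.27-fold. For Rbp4 it covered 0.846-fold to 1.13-fold, and for Fetub 0.855-fold to 1.14-fold.

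**Figure D3:**
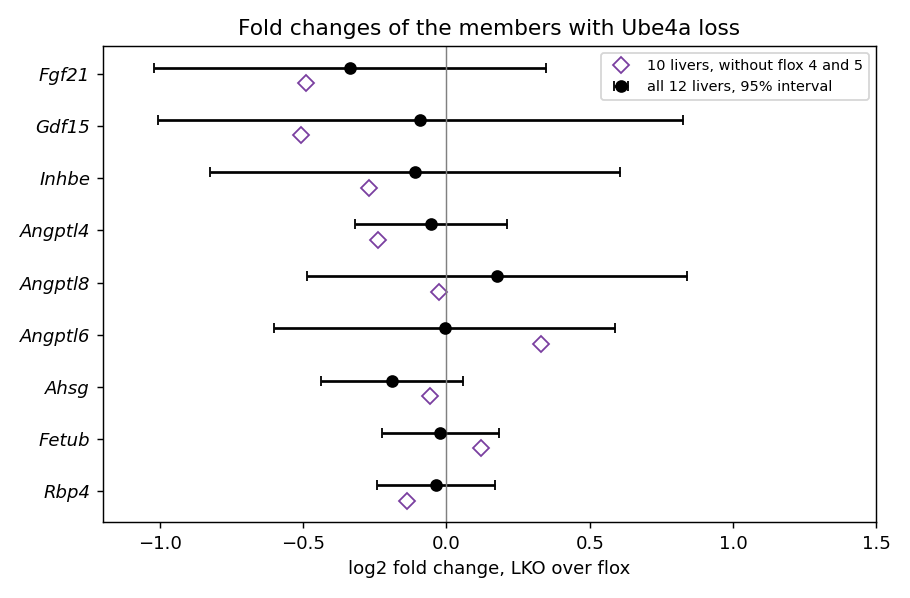
Log2 fold change, LKO over flox, of each gene with all 12 livers (black, bar is the 95% interval) and without flox 4 and 5 (open diamonds, 10 livers, no interval drawn). Every black interval includes 0, and leaving out the pair moved Angptl6 from -0.01 to 0.33 and Gdf15 from -0.09 to -0.51.

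The members were next set against each other over livers. Among the 36 pairs of the 9 genes, 0 correlations of log2 CPM passed a permutation test with 100000 resamples and Benjamini-Hochberg adjustment, over all 12 livers, over the 10 without flox 4 and flox 5, or within the 7 LKO livers (exact permutation test). At an unadjusted p under 0.05 there were 8, 5 and 3 pairs. The strongest over 12 livers was Angptl4 with Gdf15 (Pearson r = 0.75, p = 0.00596, adjusted p = 0.108 by permutation, Spearman rho = 0.62, p = 0.0348). It was 0.61 without flox 5 and LKO 6, the farthest livers for Angptl4. Over the 10 livers without flox 4 and flox 5 it was 0.68 (rho = 0.38), and -0.13 when LKO 4 and LKO 6 were also left out, so it rested on those low livers there.

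Fgf21 and Inhbe had r = 0.74 over 12 livers (p = 0.00771, adjusted p = 0.108 by permutation, rho = 0.62, p = 0.0353), 0.75 over 10 and 0.72 within LKO livers. LKO 7, with the highest Inhbe and the third lowest Fgf21, decided this value. Without LKO 7, r was 0.93 and rho 0.92 over 11 livers (permutation p = 7e-05, adjusted p = 0.00252), the one pair of 36 to pass in that setting, and one of the 12 settings that leave out a single liver. The 2 low livers LKO 4 and LKO 6 mattered as well: without them r was 0.18 over 10 livers, and without all 3 livers it was 0.86 over 9. Angptl8 had r = -0.01 with Fgf21 over 12 livers (adjusted permutation p = 0.986). With Inhbe it had r = 0.48 over 12 livers (adjusted permutation p = 0.324, rho = 0.31), 0.49 over 10 and 0.60 within LKO livers, and 0.075 over 12 without LKO 2 and LKO 7.

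The neighbours Ahsg and Fetub had r = 0.68 over 12 livers (permutation p = 0.0150, adjusted p = 0.108, rho = 0.71, p = 0.0121), 0.78 without flox 1 and flox 2, and 0.46 over 10, where flox 4 and flox 5, high for both, were left out. Ahsg went opposite to Gdf15, with r = -0.69 (permutation p = 0.0119, adjusted p = 0.108, rho = -0.72, p = 0.0107), -0.65 without flox 5 and LKO 5, and -0.58 over 10 livers. Over those 10 it was -0.39 when flox 1 and LKO 5 were also left out. Within LKO livers the highest r was 0.81, for Angptl4 with Inhbe (exact permutation p = 0.0220, adjusted p = 0.507, rho = 0.71, n = 7) and for Fgf21 with Gdf15 (exact permutation p = 0.0282, adjusted p = 0.507, rho = 0.82, n = 7). Over the 10 livers these pairs had r = 0.75 and 0.73. When LKO 4 and LKO 6 were also left out, they had 0.39 and 0.18.

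**Figure D4:**
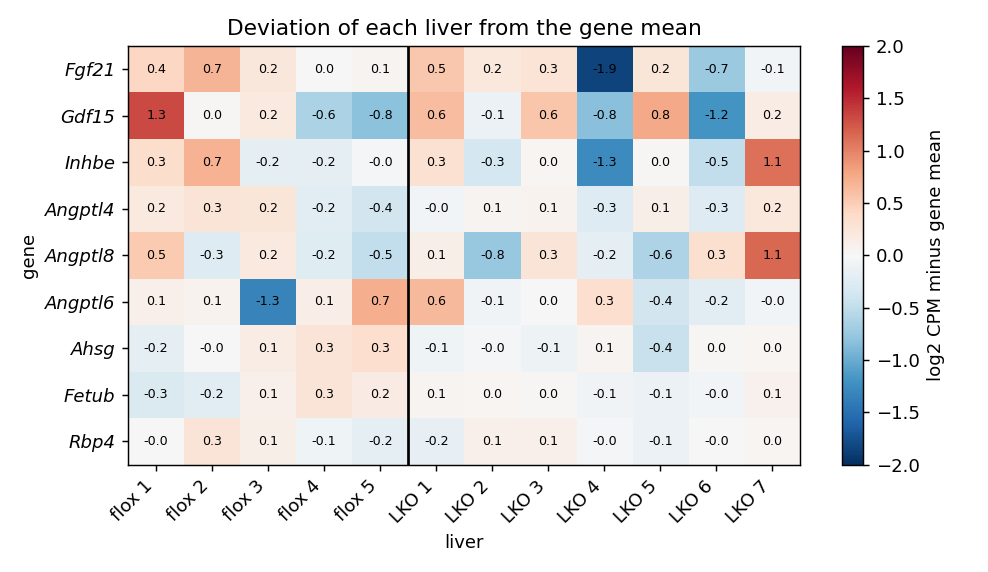
Log2 CPM of each gene in each liver minus the mean of that gene over 12 livers (red above, blue below, the black line divides flox from LKO). LKO 4 is low for Fgf21, Inhbe and Gdf15, LKO 7 high for Inhbe and Angptl8, and Angptl4, Ahsg, Fetub and Rbp4 stay pale throughout.

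All genes averaging 5 CPM or more were ranked by Pearson r of log2 CPM with each member over the 12 livers. The closest 3 were taken as a description. As the highest of many, their r values are high in part through that choice, and they carry no test. For Fgf21 the closest 3 were G0s2, an inhibitor of the lipase ATGL (r = 0.91), Ap3d1 (0.91) and Tor3a (0.90). G0s2 ran from 130.4 CPM in LKO 4 and 252 CPM in LKO 6 to 457 CPM in LKO 1. Without LKO 4 and LKO 6 its r with Fgf21 was 0.58, that of Ap3d1 0.27 and that of Tor3a 0.48. For Inhbe the closest gene was Epha2, an ephrin receptor, with r = 0.94 over 12 livers, 0.94 over 10 and 0.94 without LKO 4 and LKO 7. Next came Dffa (0.90) and Abhd1 (0.88), which had 0.60 and 0.66 without LKO 4 and LKO 7. For Gdf15 they were Tgoln1 (0.92, rho = 0.98), Snx3 (0.91) and Dtd2 (0.88).

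For Angptl4 the 3 were Nat6 (0.91), Brd2, a bromodomain protein (0.90), and Trib1, a pseudokinase with a role in hepatic lipid metabolism (0.90). For Angptl8 they were Nt5m (0.87), Larp7 (0.85) and Lancl2 (0.81), with 0.78, 0.65 and 0.53 without LKO 2 and LKO 7. For Ahsg they included Gpr146 (0.91) and Plxnb1 (0.90), for Fetub B4galt5 (0.93), Jup (0.84) and Cbl (0.83), and for Rbp4 Marc1 (0.92), Acadvl, a mitochondrial acyl-CoA dehydrogenase (0.92), and Psmc1 (0.91).

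Angptl6 had high r with marker genes of stellate, Kupffer and endothelial cells. Its 3 closest genes were Mxra8 (0.94), Angptl2 (0.93) and Colec11, a collectin (0.93), and these were 0.81, 0.67 and 0.75 without flox 3 and flox 5. Its r with the summed level of the 6 stellate cell markers was 0.82 over 12 livers, 0.89 over 10 and 0.75 within LKO livers, and all 6 markers were above 0.5 over 12. With the 7 Kupffer cell markers it was 0.78, with the 5 sinusoidal endothelial markers 0.72. With the 5 cholangiocyte markers it was 0.016 over 12 livers, -0.072 over 10 and -0.36 within LKO livers, and with the 6 hepatocyte markers -0.49, -0.34 and -0.038. Angptl4 went the other way, at -0.72 with the stellate cell sum and -0.76 with the endothelial sum over 12 livers, and at -0.47 and -0.55 over 10. Within LKO livers both were -0.36. With the Kupffer cell sum Angptl4 had -0.66 over 12 livers, -0.35 over 10 and 0.20 within LKO livers, so there the direction turned. Rbp4 also had negative r over 12 livers, over 10 and within LKO livers. These were -0.65, -0.44 and -0.69 with the stellate cell sum and -0.70, -0.56 and -0.26 with the Kupffer cell sum. Positive r with the endothelial sum was not particular to Angptl6. In the same order it was 0.68, 0.32 and 0.65 for Ahsg and 0.64, 0.36 and 0.61 for Fetub. These values share libraries and scaling, and the part of cell composition in them was not tested.

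The PPARA targets that fasting raises beside Fgf21 were looked at with the same measure. Over the 10 livers without flox 4 and flox 5, the r of Fgf21 with 7 such genes had a median of 0.70, from 0.39 for Vnn1 to 0.87 for Plin2, the coat protein of lipid droplets, and the median was 0.50 over all 12. Other members shared this: the median was 0.56 for Angptl4, 0.55 for Inhbe and 0.34 for Gdf15 over 10, and 0.64, 0.47 and 0.54 over 12. The remaining members ran from -0.37 for Ahsg to 0.16 for Angptl8 over 10. LKO 4, the lowest liver for Fgf21 and Inhbe, was also the lowest of 12 for 4 of the 7. In it Plin2 measured 509 CPM against 969 to 1668 in the other livers, and Pdk4, which restrains pyruvate oxidation, 18.1 CPM against 26.8 to 131. LKO 6, the next lowest for Fgf21, had 1006 CPM of Plin2 and 26.8 CPM of Pdk4. LKO 7, the third lowest for Fgf21, had the highest Plin2, at 1668 CPM. The r values with these genes were not computed without LKO 4 and LKO 6, so the part of those livers in them was not tested. Over the 10 livers, the r of Fgf21 with 12 regulators had a median of -0.0051 and ran from -0.56 for Nr3c1 to 0.82 for Ppara itself. Ppara measured 223 and 240 CPM in LKO 4 and LKO 6, both low for Fgf21. It was 344 CPM in flox 2, the highest for Fgf21, and 262 to 293 CPM in the rest of the 10. The r with Ppara was likewise not computed without LKO 4 and LKO 6. Only Ppara and Creb3l3, its partner in the fasting response (0.77), were above 0.5, and Rxra had 0.24. Ppara and Creb3l3 had 0.71 and 0.89 with Inhbe, and 0.75 and 0.69 with Angptl4. With 6 targets of ATF4 and CHOP the median for Fgf21 was -0.09, from -0.87 for Chac1 to 0.65 for Atf3. Chac1 was low at 0.495 to 3.69 CPM. For Inhbe and Angptl4 that median was 0.0028 and 0.14. These lists were chosen with earlier results of the data known, and the genes carry no test.

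**Figure D5:**
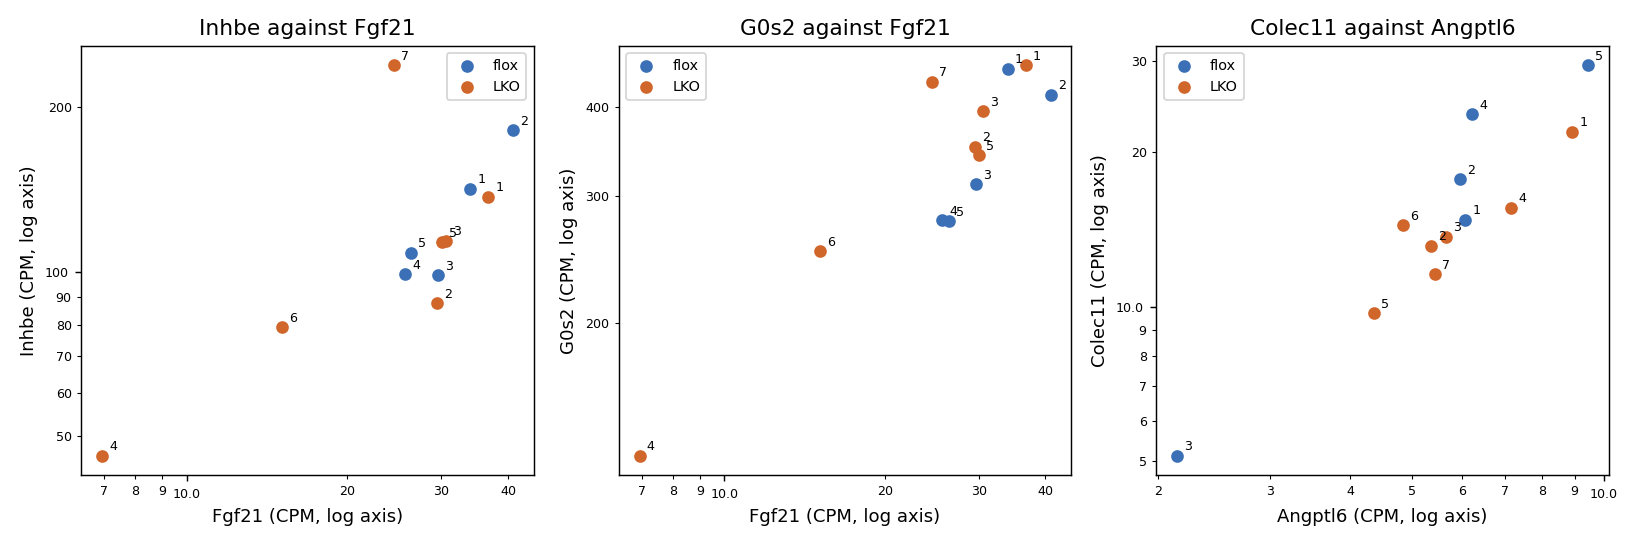
CPM of a partner gene against CPM of a member in each liver on log axes (blue flox, orange LKO, numbers are replicates), with Inhbe and G0s2 against Fgf21 and Colec11 against Angptl6. LKO 4 is the lowest liver for Fgf21, Inhbe and G0s2, LKO 7 is set off above the trend for Inhbe at 238 CPM, and flox 3 is the lowest for Angptl6 and Colec11.

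The wider pathway was taken from 10 lists of 82 genes, of which 79 were in the table and 68 were tested. None of the 68 passed the edgeR threshold. At an unadjusted p under 0.05 there were 12, with 6 higher and 6 lower, which is 17.6% against 7.64% of all genes, and DESeq2 called 0 of the 68. Without flox 4 and flox 5 there were 6 of 68, against 665 of 12601 for all genes. The lists were chosen with earlier results of these data known, so these shares are not a test of the pathway. The median log2 fold change was -0.02. Of the 2 genes of each list with the smallest p, 20 in all, most are given as values, with edgeR adjusted p of 0.514 to 0.928, and 5 of the 20 changed sign without the pair.

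Among ANGPTL relatives, Angptl2 had a log2 fold change of -0.17 with all livers and 0.50 without the pair. Furin, a protease that cleaves secreted proproteins, ANGPTL4 among them, was the one related gene whose groups did not overlap, at 485 to 554 CPM in flox and 422 to 484 CPM in LKO livers (log2 fold change -0.17, unadjusted p = 0.0163, adjusted p = 0.625, and -0.21 without the pair). It was 1 of 68 related genes tested, and groups did not overlap for 0.484% of all genes. Hepatic lipase (Lipc) measured 91.4 ± 35.0 and 128 ± 18.8 CPM, with a log2 fold change of 0.49 that was 0.18 without the pair.

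On the receiving side of FGF21, 0 of 5 tested receptor genes had an unadjusted p under 0.05. The smallest p belonged to Fgfr1 (log2 fold change -0.43, and 0.11 without the pair) and Fgfr3 (0.14). Among 12 regulators, 1 was under 0.05 with all livers (8.33%, against 7.64% of all genes) and 0 without the pair. This was Nr1d1, the circadian repressor REV-ERB alpha, at 17.1 ± 4.26 and 10.6 ± 4.38 CPM (-0.70, and -0.52 without the pair), and Nr3c1, the glucocorticoid receptor, had 0.13. The PPARA co-targets Cpt1a and Vnn1 had -0.15 and 0.27, and the ATF4 and CHOP co-targets Ppp1r15a and Sesn2 had -0.26 each. Neither co-target list held a gene under 0.05 with all livers. Without the pair the second held 2 of 6, against 665 of 12601 for all genes.

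Of 7 tested activin genes, 2 were under 0.05 (28.6%, against 7.64% of all genes), both lower in LKO livers, and without the pair 0 of 7 were. Inhbc, the activin subunit gene 4555 bases from Inhbe with none between, measured 119.9 ± 11.7 CPM and 97.1 ± 19.3 CPM (-0.30, and -0.32 without the pair). Fst, encoding the activin antagonist follistatin, measured 4.94 ± 1.84 and 2.91 ± 1.28 CPM (-0.76, and -0.35 without the pair). Among relatives of the fetuins, Kng1 had -0.14 and Cst3 0.06, with 0 of 3 under 0.05. Among 4 retinol genes, Stra6l, also called Rbpr2, a receptor for RBP4, had a log2 fold change of 0.24 (0.25 without the pair).

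Among 13 other tested hepatokines, 4 were under 0.05 (30.8%, against 7.64% of all genes), with 3 higher and 1 lower. Without the pair 1 of 13 was, against 665 of 12601 for all genes. Lect2, a secreted chemotactic factor linked to insulin resistance, measured 32.6 ± 5.18 CPM in flox and 49.98 ± 13.4 CPM after knockout, with a log2 fold change of 0.62 (standard error 0.18, unadjusted p = 0.00362, adjusted p = 0.514 in edgeR) and 0.46 without the pair. Igfbp1, an insulin-like growth factor binding protein that fasting raises, measured 247 ± 72.2 and 149 ± 63.8 CPM (-0.73, unadjusted p = 0.0268, adjusted p = 0.635, and -0.51 without the pair). Both were larger in size than any of the 9 members with all livers, and neither passed the threshold.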

How the data were processed

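RNA from the livers of 12 mice was sequenced from NEBNext Ultra libraries of TRIzol RNA, per the labels' protocols. The authors deposited whole-number counts per gene and FPKM values. The submitters' processing notes name HISAT2 2.0.5, fastp and CASAVA 1.8, featureCounts 1.5.0-p3, the build GRCm39 and DESeq2 1.20.0, while the deposited identifiers and coordinates are of the C57BL/6NJ annotation. The sources used here give no strand setting, read length or treatment of shared reads. The gene length column (another unit, in bases), as deposited by the authors, was used for the check that FPKM equals count over length and an effective size. Loci with no symbol held 1.36% to 1.95% of counts and stayed in the library sizes.

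Counts were filtered with filterByExpr, scaled by TMM and tested with edgeR 4.0.16 (robust quasi-likelihood, no covariate), with Benjamini-Hochberg adjustment over all 12615 genes. CPM uses the scaled sizes, and correlations used log2 CPM with a prior count of 2. Alternatives were other scalings and filters, non-robust dispersion, DESeq2 1.42.0, limma 3.58.1 voom with quality weights, log2(FPKM + 0.1) and log2(FPKM + 1), a replicate block and leaving out each liver. Leaving out flox 4 and flox 5 together was chosen after seeing the data. The code was tested on simulated data.

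Members and lists were chosen with earlier results of these data known. Named genes were all members, the 2 of each related list with the smallest p, and the 3 genes most like each member, and some genes this names are not reported here. Co-target and regulator genes named for a correlation or a level were chosen after their values were seen. Libraries within a group differed beyond sampling noise, and no litter or batch is given. Depth was 13399874 to 16525053 counts, and the 95% intervals come from the fit across livers.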

Additional observations from a re-analysis of the deposited data

Results flagged for a closer look

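In a check of each group for a single liver set off from the rest, 2 of the 18 groups of member values were picked out, and chance gives about 1 in 20. Angptl8 in LKO 7 measured 29.9 CPM, and the gap to the next LKO liver was 0.599 of the range of the group. Without it the log2 fold change of Angptl8 was -0.087 in place of 0.18. Ahsg in LKO 5 measured 5986 CPM, below the other LKO livers by 0.634 of the range of the group.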

How the results depend on the processing

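The count of members past the threshold was 0, and that of related genes 0, in every setting run. The count over all genes was 1, except 22 with the DESeq2 test, and 1 to 2 when single livers were left out (2 without LKO 7). Pairs of members that passed were 0 in each setting except 1 without LKO 7, so leaving out single livers gave 0 to 1. Fgf21 and Ahsg kept their direction in all 23 alternatives. Directions turned with limma voom for Angptl4 (0.048), Gdf15 (0.20) and Rbp4 (0.032), and on the FPKM scale for Angptl6 (0.094 with 0.1 added, 0.052 with 1 added). Replicate numbers did not pair the livers (same-number correlations -0.29 to 0.10). The replicate block was run on the 10 livers numbered 1 to 5, so without LKO 6 and LKO 7. In it Angptl6 was at 0.15, Angptl8 at -0.20 and Gdf15 at 0.15, and 1 gene was called with and 1 without the block. Leaving out LKO 7 alone put Angptl8 at -0.087, and leaving out LKO 6 alone put Gdf15 at 0.041. These values do not separate the block from the loss of those livers. Without flox 4 and flox 5, Angptl6 was at 0.33, Angptl8 at -0.026 and Fetub at 0.12. With single livers left out, log2 fold changes ran from -0.15 to 0.0012 for Angptl4, -0.21 to 0.21 for Angptl6, -0.087 to 0.34 for Angptl8, -0.094 to 0.039 for Fetub, -0.39 to 0.047 for Inhbe, -0.27 to 0.40 for Gdf15, -0.094 to 0.018 for Rbp4, -0.47 to -0.18 for Fgf21 and -0.27 to -0.14 for Ahsg. The cause was not tested. Depth limits Angptl6 most, with 28 counts in its lowest liver.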
